A study of Mus musculus with 7 samples.

Results

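The nuclear-encoded genes of the respiratory chain were examined in mouse neutrophils. They were taken as the gene symbols that start with Nduf, Uqcr, Atp5, Sdha, Sdhb, Sdhc, Sdhd, Cox4, Cox5, Cox6, Cox7 or Cox8 and that have a row in all 7 count tables. Of 96 symbols with these prefixes, 81 met this condition, against 6677 genes of any name with a row in all 7 tables and 28719 symbols over all tables. The 81 members comprise 7 core and 30 accessory symbols of complex I, 4 of complex II, 8 of complex III, 12 of complex IV, 14 of the ATP synthase and 6 assembly factors. The symbols place Ndufa4, now known as a subunit of complex IV, with complex I, and Cox7a2l, a factor that joins complexes III and IV into supercomplexes, with complex IV.

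The respiratory chain lies in the inner mitochondrial membrane. Complexes I and II take electrons from NADH and succinate, complexes III and IV pass them on to oxygen, and the ATP synthase uses the proton gradient that results. Complexes I, III and IV and the ATP synthase combine subunits encoded in the nucleus with subunits encoded in the mitochondrial genome, whose symbols start with mt-. Neutrophils are known to draw most of their ATP from glycolysis and to hold few mitochondria when mature, while their precursors in bone marrow depend more on oxidative metabolism.

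Neutrophils had been sorted as live (propidium iodide-negative) cells positive for Ly6G and CD11b from male C57BL/6J mice and profiled by droplet single-cell RNA-seq, in which unique molecular identifiers (UMIs) count transcripts near their 3′ ends. Peripheral blood, bone marrow and spleen of untreated mice gave 1 library each in run 1 (mice of 6 weeks) and in run 2 (mice of 8 weeks), so that each tissue had 2 libraries, each from 3 pooled mice that gave all 3 tissues of their run. A single further library of hashtagged cells, also with 3 mice per condition, held 5 conditions: blood of healthy mice, blood and joint of mice with arthritis 7 days after the first of 2 injections of K/BxN serum, and lung and peritoneum 3 hours after 25 ng of IL-1β. The mice were 8 weeks old when given serum or IL-1β, and the age of the healthy mice of this library is not given in the sources used here. The conditions of this library have no replicate, and its chemistry differed from that of the healthy libraries, so the 2 experiments are given side by side and not compared by test.

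In the healthy libraries, 12755 of 16907 deposited cells had at least 3% of their UMIs from S100a8 and S100a9, the abundant calcium-binding proteins of neutrophils, and were kept. In the inflammation library, 4852 of 4856 cells were kept, those that the authors' annotation gave as neutrophils. The kept cells of a library or condition summed to between 942688 and 10293966 UMIs. All 11 listed neutrophil markers had UMIs in each of the 6 healthy libraries and each of the 5 conditions. S100a8 and S100a9, by which the healthy cells were kept, are among them. In sums of this size, the presence of UMIs does not show which cells were kept. The 3 libraries of run 1 list only genes with at least 11 UMIs over all their deposited cells, so a gene without a row there had at most 10 and was set to 0. Levels are given as CPM, a gene's UMIs per 1000000 UMIs of the kept cells. Blood of run 2 carried 30348 CPM from 6 erythroid markers, against 252 to 912 CPM in the other healthy libraries. Spleen of run 2 carried 807 CPM from 7 B-cell markers, against 3.77 to 303 CPM elsewhere, and only 2010 of its 4353 cells passed the S100a8 and S100a9 limit. Monocyte and macrophage markers summed to 1020 to 1390 CPM in bone marrow, 356 to 1157 CPM in spleen and 267 to 637 CPM in blood. The part of these cells or of free RNA in the results below was not tested.

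As a whole the module took a similar share of UMIs in the 3 healthy tissues. The 81 members made up 1.42% and 1.35% of UMIs in bone marrow, 1.44% and 1.496% in blood, and 1.32% and 1.54% in spleen (runs 1 and 2). The means were 1.39% ± 0.0515 in bone marrow, 1.47% ± 0.0414 in blood and 1.43% ± 0.161 in spleen (SD, n = 2 libraries). Within runs, the log2 ratio of blood over bone marrow was 0.02 and 0.15, and that of spleen over bone marrow was -0.11 and 0.19. The tissues therefore overlapped, except that both blood libraries lay above both bone marrow libraries, by less than the distance between the 2 spleen libraries. The order of blood and bone marrow turned with the denominator. Genes other than S100a8, S100a9 and the haemoglobin genes held 63.9% and 64.4% of the UMIs in bone marrow but 74.6% and 79.1% in blood. Of the UMIs of those genes, the members made up 2.22% and 2.09% in bone marrow and 1.93% and 1.89% in blood.

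**Figure D1:**
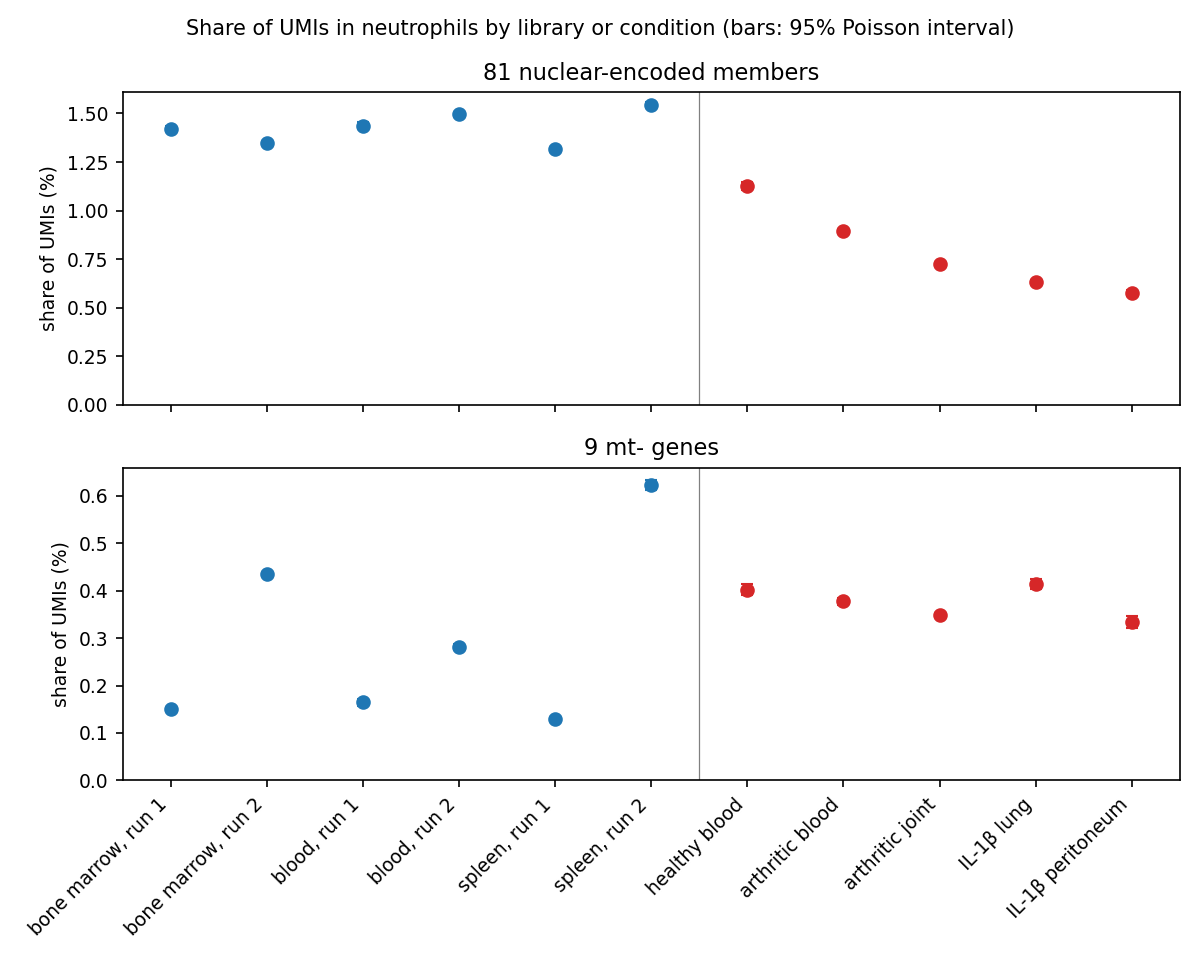
Share of UMIs (%) from the 81 members (top) and from the 9 mt- genes with a row in all tables (bottom) for each healthy library (blue) and each inflammation condition (red), with 95% Poisson intervals that cover counting error only. The members' share lies between 1.32% and 1.54% in the healthy libraries and between 0.578% and 1.13% in the inflammation library. The mt- share is higher in run 2 than in run 1 in every tissue.

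Single members did differ between blood and bone marrow. With edgeR's quasi-likelihood test on UMIs summed per library, 16 of the 80 members tested were lower in blood than in bone marrow and none was higher, at a Benjamini-Hochberg adjusted p (FDR) under 0.05 over 7809 genes. Among all genes tested, 9.94% were called lower and 11.7% higher. The members' median log2 fold change was -0.48, against -0.02 over all genes tested, and 64 of the 80 lay below 0. The 16 were 12 of 30 accessory symbols of complex I, 1 of 4 of complex II, 1 of 8 of complex III and 2 of 14 of the ATP synthase. No core subunit of complex I, no symbol of complex IV and no assembly factor was called, while 3, 2 and 1 of them had an unadjusted p under 0.05. Over all members this was 35 of 80, and over all genes tested 2844 of 7809. The remaining member, Ndufaf4, an assembly factor of complex I, did not pass the filter on low counts, with at most 5.62 CPM in any healthy library.

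The called members with the lowest fold changes were accessory subunits of complex I, which surround its catalytic core. Ndufa11 (chr17:56717767-56722141 in mm10), a membrane subunit that also contacts complex III, was at 93.5 and 71.0 CPM in bone marrow, 28.7 and 14.1 CPM in blood and 75.5 and 22.5 CPM in spleen. Blood lay below bone marrow in both runs, with a log2 fold change of -2.35 ± 0.44 (SE) and an edgeR adjusted p of 0.0123. Ndufa5 (chr6:24518666-24528013), a subunit of the peripheral arm, was at 48.0 and 34.7 CPM in bone marrow and at 22.1 and 5.46 CPM in blood (-2.15 ± 0.38, adjusted p = 0.0113). Ndufc2 (chr7:97400003-97407802), a subunit of the membrane arm, was at 77.9 and 58.3 CPM in bone marrow and at 30.9 and 14.1 CPM in blood (-2.01 ± 0.31, adjusted p = 0.00744). The 2 blood libraries of these 3 genes differed by 2-fold or more and still lay below both bone marrow libraries.

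Outside complex I, Uqcrb, a small subunit of complex III near its ubiquinone site, was at 238 and 199.8 CPM in bone marrow, 118 and 65.5 CPM in blood and 179.7 and 92.0 CPM in spleen. Its log2 fold change in blood was -1.63 ± 0.31 (adjusted p = 0.0135). Atp5o, a subunit of the stalk of the ATP synthase, was at 124 and 93.3 CPM in bone marrow and at 52.2 and 49.98 CPM in blood (-1.34 ± 0.25, adjusted p = 0.0125). Its transcripts share 23.4% of the sequence windows described below with other genes, among them the overlapping gene Donson. Ndufa12 shares 30% with a pseudogene, Uqcrb 18.4% with 2 pseudogenes, Ndufb2 8.20% and Ndufb3 0.656%, so the counts of these called members are less certain, while the others called share none. Sdhc, a membrane anchor of complex II, was at 30.1 and 20.5 CPM in bone marrow and at 19.1 and 15.2 CPM in blood (-0.82 ± 0.23, adjusted p = 0.0439). Ndufv3, Ndufb2, Ndufc1, Ndufa9 and Ndufs4, accessory subunits of complex I, had log2 fold changes of -1.60, -1.37, -1.33, -1.14 and -1.13. The other called members were Ndufa12, Ndufa10, Atp5g3, Ndufa4 and Ndufb3, with log2 fold changes between -1.08 and -0.77.

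None of the 5 members with the highest mean CPM over the healthy libraries was called. Cox8a, a small subunit of complex IV, was at 664 and 608 CPM in bone marrow and at 933 and 1014 CPM in blood, a log2 fold change of 0.32 ± 0.22 that was not called (adjusted p = 0.332). Cox4i1, the ubiquitous form of the complex IV subunit that binds ATP, was at 655 and 526 CPM in bone marrow and at 827 and 821 CPM in blood (0.20 ± 0.22). Atp5e, the epsilon subunit of the ATP synthase, had a log2 fold change of 0.31 ± 0.21, Ndufa3 of complex I one of -0.03 ± 0.22 and Cox6b1 of complex IV one of 0.07 ± 0.21, and none of them was called. These fold changes lay near 0 and in granule-high cells those of Cox8a (-0.10) and Cox4i1 (-0.015) lay below it. With cells bearing markers of other lineages left out, which kept 49 of 4653 blood cells of run 2, Cox8a was at -0.12, Atp5e at -0.072 and Cox6b1 at -0.11. Without the erythroid limit of that filter, which kept 3183, they were at 0.13, 0.18 and 0.04. In bone marrow the full filter kept 278 of 1271 and 1273 of 3823 deposited cells (runs 1 and 2). The median UMIs per cell were 1695.5 and 1496 in these, against 2698.5 and 2133.5 before the filter. The CPM of all 5 members were higher in both blood libraries than in both bone marrow libraries, while the median log2 ratio of CPM over all genes tested was itself 0.29. The members furthest above the module's median were Atp5l, a subunit of the ATP synthase membrane part (0.82 ± 0.27, adjusted p = 0.0715), and Ndufa7 of complex I (0.61 ± 0.20, adjusted p = 0.0740). Ndufa7 was at 235 and 226 CPM in bone marrow and at 409 and 452 CPM in blood. Sdhaf4, an assembly factor of complex II, had a log2 fold change of -2.21 ± 0.75 from 1.47 to 7.77 CPM and was not called.

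**Figure D2:**
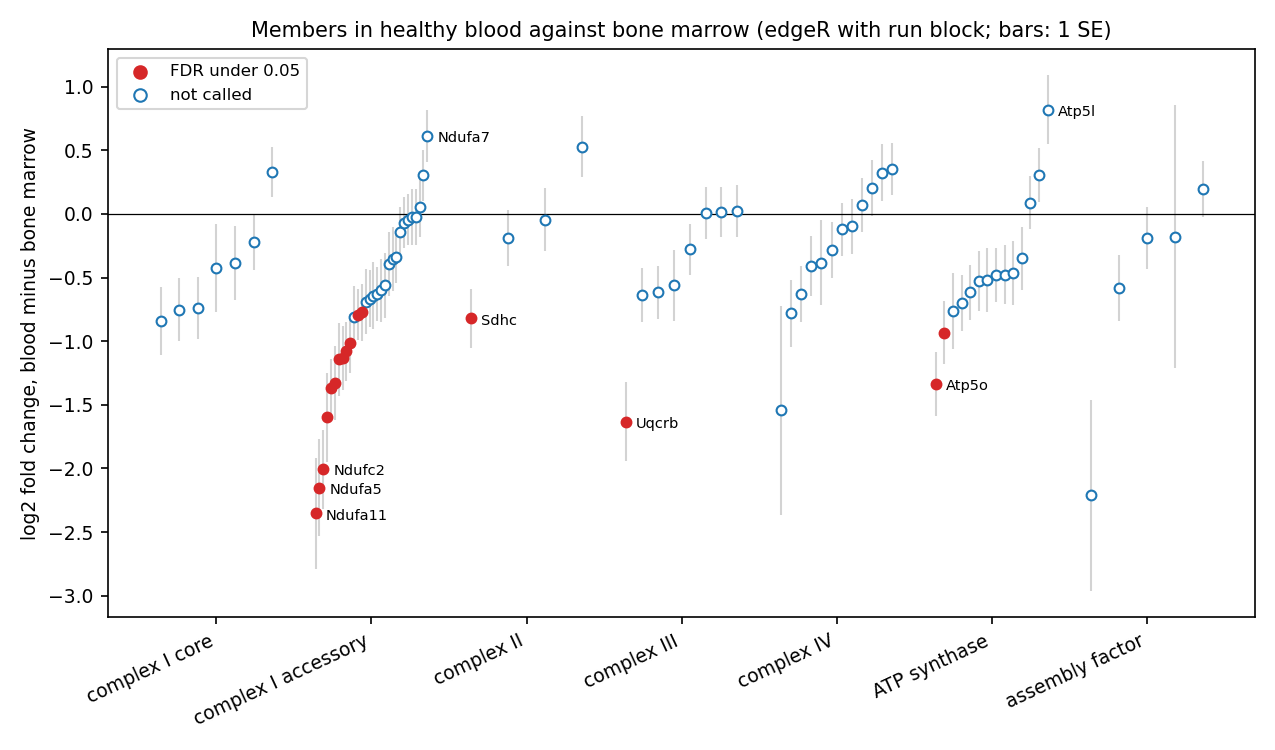
Log2 fold change of 80 members in healthy blood against bone marrow, by complex, from edgeR with run as a block. Bars are 1 SE and filled points have an FDR under 0.05. The 16 called members all lie below 0, and 12 of them are accessory symbols of complex I.

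The calls rest on the pairing of the tissues within a run and on both blood libraries. Without the replicate block, edgeR called 0 of 80 members (21 at an unadjusted p under 0.05), with 1.06% of all genes called lower. It called 0 of 81 without blood of run 1 (13 at an unadjusted p under 0.05), 0 of 81 without blood of run 2 (29) and 0 of 81 over all deposited cells without the S100a8 and S100a9 limit (8), where 0.368%, 0% and 0% of all genes were called lower. How many of all genes had an unadjusted p under 0.05 in these fits was not counted. DESeq2 called 11 members lower and 1 higher in blood, with 6.75% and 8.37% of all genes. Leaving out bone marrow of run 2 left 5 members called lower (4.97% of all genes). Over the fits that each left out 1 library, the log2 fold change of Ndufa11 ranged from -2.97 to -1.60. That of Cox8a ranged from 0.23 to 0.42. With 2 libraries per tissue and run as a block, the p-values above measure how far the differences between tissues varied between the 2 runs. Each run is 1 pool of mice.

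The start regions of the members were also read. RefSeq promoters (GRCm38.p6) were matched by symbol for 69 of 81 members. In the 250 bases before the start site, 3 strings were searched on both strands: GCGCATGC (the core of NRF1 sites), CCGGAAG (bound by GABP and other ETS factors) and AAGATGGC (bound by YY1). Of the 14 called members matched, 1 held any of the strings, against 18 of the 55 other members, 24.8% of 6005 tested genes and 11.5% of all 27025 genes. The NRF1 string was in 11.6% of members and in 5.53% of tested genes, and the ETS string in 18.8% and 18.5%. These counts describe the letters of these windows and not binding. Shown are the windows of Ndufa11 (chr17:56717512-56717761, plus strand), the called member that holds the NRF1 string, of Ndufc2 (chr7:97399753-97400002, plus strand), a called member with none of them, and of Cox6a1 (chr5:115348959-115349208, minus strand), a member that was not called and holds the NRF1 and ETS strings. They run 5′ to 3′ up to the base before the start site, and capitals mark matches, which overlap where a match on each strand shares bases.
Ndufa11: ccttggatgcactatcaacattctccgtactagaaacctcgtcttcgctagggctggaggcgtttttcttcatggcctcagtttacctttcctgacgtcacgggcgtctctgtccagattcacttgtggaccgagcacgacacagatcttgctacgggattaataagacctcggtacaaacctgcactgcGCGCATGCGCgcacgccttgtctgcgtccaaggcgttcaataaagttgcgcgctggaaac
Ndufc2: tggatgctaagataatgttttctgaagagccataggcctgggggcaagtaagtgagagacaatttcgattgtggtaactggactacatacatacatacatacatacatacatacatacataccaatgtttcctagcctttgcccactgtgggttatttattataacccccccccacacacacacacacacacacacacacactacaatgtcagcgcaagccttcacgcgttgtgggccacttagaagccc
Cox6a1: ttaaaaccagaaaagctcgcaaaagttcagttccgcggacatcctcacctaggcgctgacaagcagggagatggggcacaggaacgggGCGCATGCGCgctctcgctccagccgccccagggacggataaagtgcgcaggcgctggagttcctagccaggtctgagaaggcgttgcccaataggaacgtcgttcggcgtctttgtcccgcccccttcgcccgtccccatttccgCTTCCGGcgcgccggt

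To see in which cells these members were high, the kept cells of each library were split by their own transcripts into cycling cells (at least 5 UMIs of cell cycle genes), granule-high cells (at least 2% of UMIs from Camp, Ngp, Ltf, Lcn2, Chil3 and Fcnb, which encode granule and early granulocyte proteins) and granule-low cells. The classes are ranges along a continuum and not cell types, and 900 of 3426 bone marrow cells of run 2 had a granule share of 1% to 4%, near the limit. In bone marrow, the module made up 1.92% and 1.83% of UMIs in cycling cells, 1.34% and 1.30% in granule-high cells and 1.16% and 1.15% in granule-low cells. Each class was lower than the one before in both runs, by more than the 95% Poisson intervals. This order held in bone marrow. In the other tissues, granule-low cells lay above granule-high cells in every library, at 1.48% against 1.25% and 1.499% against 1.35% in blood, and at 1.42% against 1.25% and 1.55% against 1.30% in spleen. Among 77 members with a mean of at least 10 CPM, 69 were lower in granule-high than in cycling cells in each run, with a median ratio of 0.668 and 0.649. The median over 4957 genes of that level was 0.891 and 0.949. From granule-high to granule-low cells of bone marrow, 57 and 60 of the 77 members were lower, with a median ratio of 0.786 and 0.773, against 1.15 and 1.09 over all these genes.

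Several of the members called lower in blood were already lower in the granule-low cells of bone marrow. Ndufa11 was at 148 and 142 CPM in cycling cells, 91.4 and 72.8 CPM in granule-high cells and 42.6 and 26.2 CPM in granule-low cells of bone marrow, and at 12.0 and 11.3 CPM in granule-low cells of blood. Ndufc2 was at 192 and 177 CPM, then 58.2 and 41.6 CPM, then 24.5 and 16.5 CPM, and at 23.0 and 12.5 CPM in granule-low cells of blood. Uqcrb was at 450.3 and 349 CPM, then 217 and 215 CPM, then 82.6 and 86.1 CPM, and at 62.1 and 57.2 CPM in granule-low cells of blood. In all 3 genes, both runs gave the same order of the 3 bone marrow classes. Cox8a and Ndufa7 did not follow it. Cox8a was at 800 and 644 CPM in cycling, 579 and 546 CPM in granule-high and 811 and 691 CPM in granule-low cells of bone marrow, and at 1081 and 1032 CPM in granule-low cells of blood. Ndufa7 was higher in each class than in the one before, from 174 and 167 CPM in cycling cells to 272 and 265 CPM in granule-low cells of bone marrow and 498 and 462 CPM in granule-low cells of blood.

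**Figure D3:**
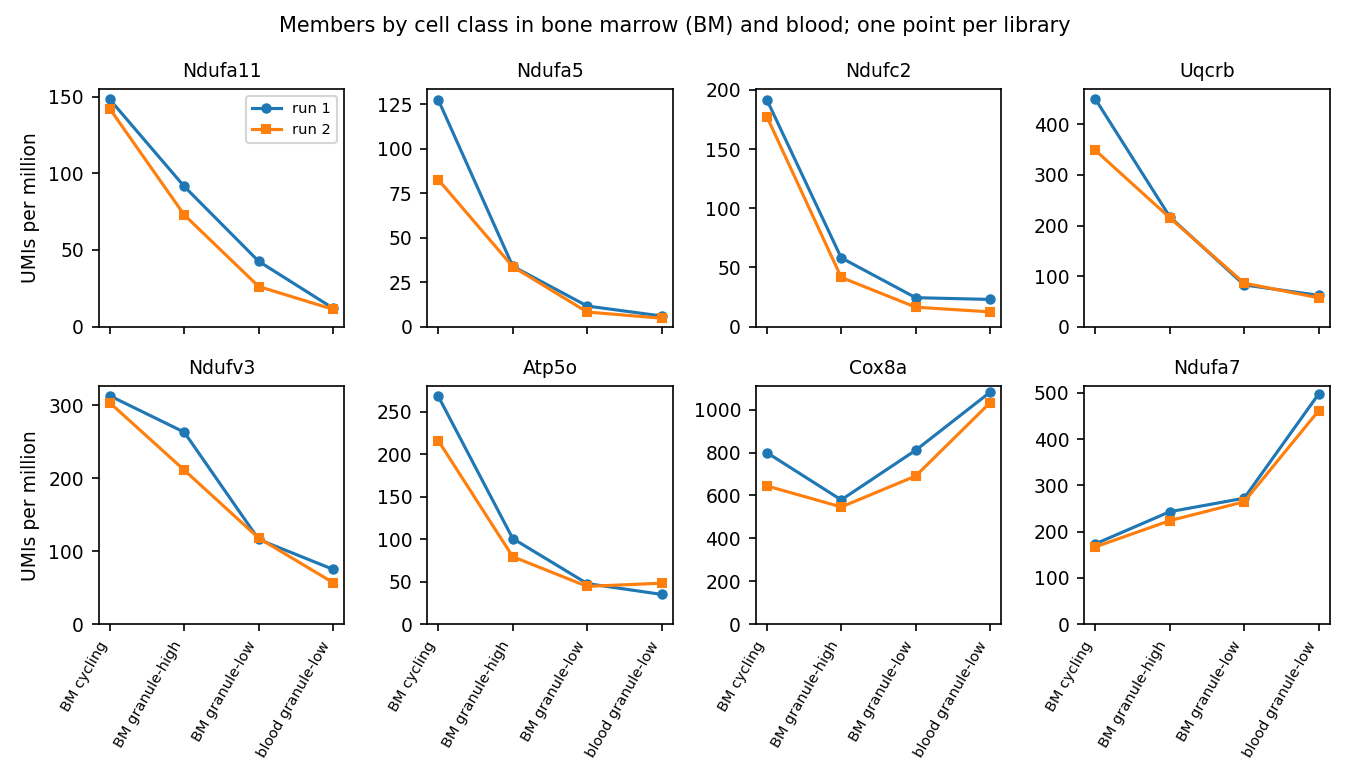
CPM of 8 members in cycling, granule-high and granule-low cells of bone marrow and in granule-low cells of blood, with 1 point per library and lines joining the points of a run. Ndufa11, Ndufa5, Ndufc2, Uqcrb, Ndufv3 and Atp5o are highest in cycling cells, while Cox8a and Ndufa7 are highest in granule-low cells of blood.

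The tissues were also compared within a class. In granule-low cells, edgeR with the run block called 6 of 77 members lower and 1 higher in blood than in bone marrow, where 8.32% and 8.62% of 6020 genes were called. The 6 were Ndufa11 (-1.83 ± 0.28), Ndufv3 (-1.30 ± 0.18), Uqcrb (-0.94 ± 0.17), Ndufs4 (-0.77 ± 0.18), Ndufb11 (-0.59 ± 0.16) and Atp5f1 (-0.57 ± 0.17), the last a subunit of the stator of the ATP synthase. The 1 called higher was Sdha, the flavoprotein of complex II (0.68 ± 0.20, adjusted p = 0.0424). The members' median log2 fold change was -0.13, against 0.06 over all genes tested. On the CPM scale, without the TMM scaling, the members' median ratio in these cells was 1.203 and 1.304, with 52 and 63 of 77 above 1, and that of all 4957 genes of at least 10 CPM was 1.37 and 1.32. In granule-high cells, of which blood held 145 and 35, the only member called was Cox7a2l (-1.27 in blood, where 0.386% of 5188 genes were called lower and 0.482% higher), and 4 of 78 members had an unadjusted p under 0.05. Cox7a2l was also called higher in spleen than in blood there (1.33), where 0.52% of genes were called higher and 0.328% lower, while no member was called between spleen and bone marrow, where 0.0578% were called lower and 0.212% higher and 1 member had an unadjusted p under 0.05.

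No member was called between spleen and either bone marrow or blood when all kept cells were used. edgeR called 0 of 80 members between spleen and bone marrow, where 0.512% of all genes tested were called lower and 2.24% higher. There 10 members had an unadjusted p under 0.05 in edgeR, against 1310 of the 7809 genes. Between spleen and blood edgeR called 0 of 80, where 0.0512% of genes were called lower and 0% higher. An unadjusted p under 0.05 was reached there by 8 members, against 801 of the 7809 genes. DESeq2 also called 0 members in both. The members' median log2 fold change was -0.20 against bone marrow and 0.23 against blood. Furthest from the median against bone marrow lay Cox6b2 (-1.67), Ndufc2 (-1.11 ± 0.30, adjusted p = 0.120), Ndufa11 (-1.06 ± 0.41) and Uqcrb (-0.92 ± 0.31). Against blood these were Sdhaf4 (1.65 ± 0.79), Ndufa5 (1.30 ± 0.40, adjusted p = 0.413), Ndufa11 (1.30 ± 0.45) and Ndufc2 (0.90 ± 0.32). The 2 spleen libraries stood apart: Ndufa11, Uqcrb and Ndufv3 were at 75.5, 179.7 and 208 CPM in run 1 and at 22.5, 92.0 and 87.9 CPM in run 2. In run 1, Ndufa11 and Ndufv3 were nearer to bone marrow than to blood, and Uqcrb lay about midway. In run 2 all were nearer to blood. In run 1, 495 of 1135 spleen cells were granule-high, against 49 of 2010 in run 2. Without spleen of run 1, edgeR called 11 of 81 members lower in spleen than in bone marrow, with 6.05% of all genes, and without bone marrow of run 1 it called 5, with 4.21% of all genes. Against blood, it called 2 members higher in spleen without bone marrow of run 1 or of run 2 (2.52% and 2.62% of all genes), and 1 without spleen of run 2 (2.23%). In granule-low cells it called 6 of 77 lower and none higher than in bone marrow, where 7.19% and 7.46% of genes were called. Against blood it called 0 of 77 in these cells (0 also at an unadjusted p under 0.05), where 0.183% of genes were called higher and 0.0831% lower. The 6 called against bone marrow were Ndufa11 (-1.45 ± 0.30), Ndufv3 (-0.93 ± 0.19), Uqcrb (-0.79 ± 0.18), Ndufs4, Ndufb7 and Ndufb11.

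In the inflammation library, the module took a smaller share of UMIs in inflamed than in healthy neutrophils. The members made up 1.13% of UMIs in healthy blood (95% Poisson interval 1.11 to 1.15), 0.896% in arthritic blood (0.885 to 0.907), 0.722% in the joint (0.717 to 0.728), 0.630% in the lung (0.617 to 0.644) and 0.578% in the peritoneum (0.562 to 0.593). These intervals, and those of the ratios below, cover counting error only, and with 1 pool per condition there was no test. Relative to healthy blood, the share was 0.795 in arthritic blood (exact 95% interval 0.778 to 0.812), 0.641 in the joint (0.629 to 0.653), 0.559 in the lung (0.544 to 0.575) and 0.513 in the peritoneum (0.496 to 0.529). The joint was at 0.807 of arthritic blood (0.795 to 0.818), and the lung at 1.09 of the peritoneum (1.05 to 1.13). The number of member UMIs per cell differed less, at 24.9 in healthy blood, 29.6 in arthritic blood, 26.0 in the joint, 21.9 in the lung and 18.6 in the peritoneum, with a median of 2527 total UMIs per cell in healthy blood and of 3475.5 to 3681 in the other conditions.

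Most members shared this direction, as did many other genes. Of 43 members with a mean of at least 50 CPM over the 5 conditions, 5 were more than 1.5-fold lower in arthritic than in healthy blood, 28 in the joint, 38 in the lung and 39 in the peritoneum, and none was more than 1.5-fold higher in any of these. Among 2263 genes of that level, 17.1%, 34.3%, 52.6% and 52.3% were lower by this measure, and 2.87%, 18.5%, 20.9% and 20.7% higher. The members' median ratio was 0.789 in arthritic blood, 0.627 in the joint, 0.513 in the lung and 0.481 in the peritoneum, and that of all genes 0.826, 0.824, 0.638 and 0.636. These 4 comparisons share healthy blood as their control. Between joint and arthritic blood, 12 members were lower and none higher, where 18.2% and 25.8% of genes were. Between lung and peritoneum, 2 members were higher in the lung and none lower, where 14.5% and 17.8% of genes were.

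Among members with a mean of at least 50 CPM, the steepest were Cox7a2l and small subunits of complexes I, III and IV. Cox7a2l was at 243 CPM in healthy blood, 190.5 in arthritic blood, 71.5 in the joint, 69.6 in the lung and 46.7 in the peritoneum. Its ratio to healthy blood was 0.295 in the joint (0.256 to 0.340) and 0.192 in the peritoneum (0.137 to 0.265). Uqcr11, a small subunit of complex III, went from 156 CPM in healthy blood to 88.7, 58.5, 40.1 and 32.9 CPM in the same order, a ratio of 0.567 (0.465 to 0.693) already in arthritic blood. Ndufs5, an accessory subunit of complex I, was at 128 CPM in healthy blood and at 27.3 CPM in the lung (ratio 0.213, interval 0.143 to 0.309). Ndufa4 was at 119 CPM in healthy blood and at 70.9, 55.8, 33.3 and 26.5 CPM in the other conditions. Ndufb3, an accessory subunit of complex I, was at 0.583 of healthy blood in arthritic blood (0.445 to 0.766). Between joint and arthritic blood, the lowest members of that level were Cox7a2l (0.375), Ndufa8 (0.453) and Ndufs5 (0.546).

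A few members lay near their level in healthy blood. Cox5b, a zinc-binding subunit of complex IV, was at 214 CPM in healthy blood, 206 in arthritic blood, 216 in the joint, 263 in the lung and 181 in the peritoneum. It was the only one of the 43 above healthy blood in the lung (ratio 1.23, interval 1.04 to 1.45), and the joint's interval included 1 (1.01, 0.881 to 1.15). Cox8a was at 916, 763, 737, 890.2 and 709 CPM in the same order, and its interval in the lung included 1 (0.972, 0.893 to 1.06). Uqcrq, a small subunit of complex III, was at 193 CPM in healthy blood and 192 CPM in the joint, but at 128 CPM in the peritoneum. Cox5b and Uqcrq were picked after their values were seen. Of the other members with the highest mean CPM over the healthy libraries, Cox4i1 was at 619.6 CPM in healthy blood and 279 CPM in the peritoneum, Atp5e at 708 and 404 CPM, Ndufa3 at 279 and 173 CPM, and Cox6b1 at 332 and 159 CPM. The 2 members higher in lung than in peritoneum were Ndufa6 of complex I (77.2 against 39.2 CPM, ratio 1.97, interval 1.34 to 2.95) and Sdhd, a membrane anchor of complex II (43.1 against 24.4 CPM, ratio 1.77, interval 1.07 to 3.01).

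**Figure D4:**
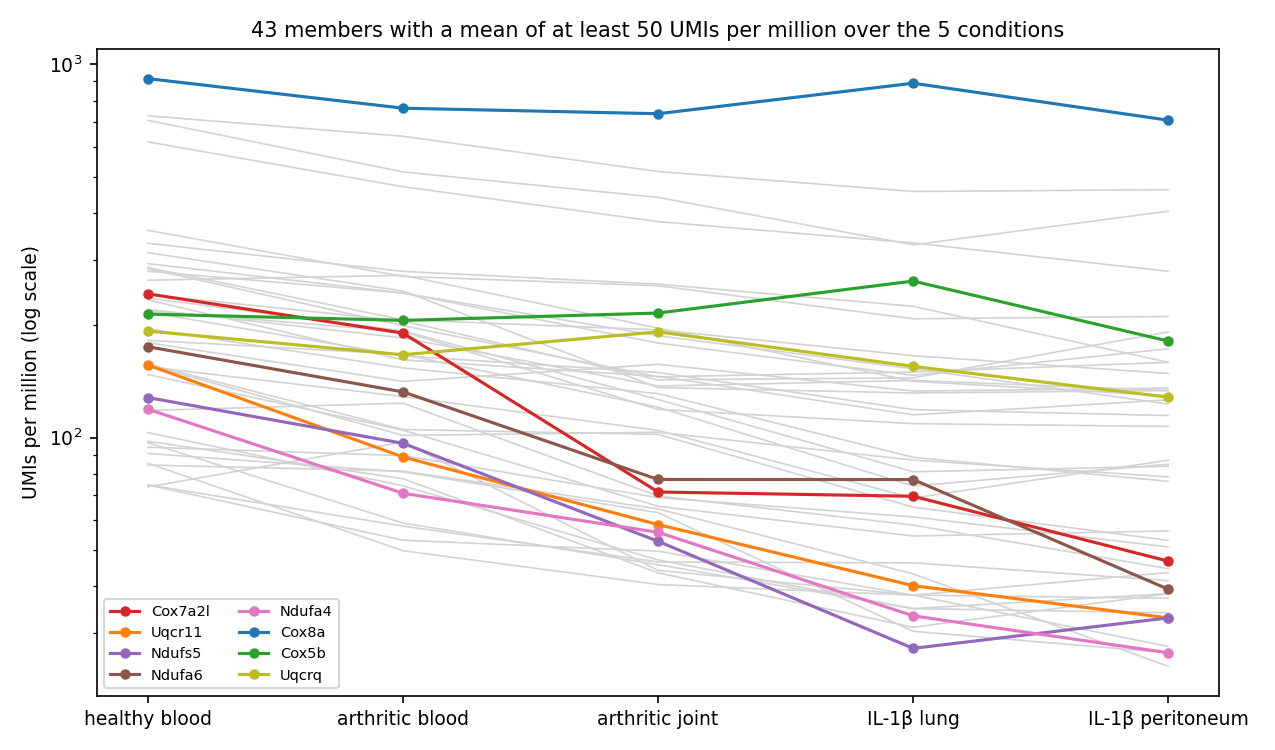
CPM (log scale) of the 43 members with a mean of at least 50 CPM in each of the 5 conditions of the inflammation library, with lines joining the values of a gene. Cox7a2l, Uqcr11, Ndufs5, Ndufa6 and Ndufa4 are lowest in lung or peritoneum, while Cox8a lies between 709 and 916 CPM and Cox5b between 181 and 263 CPM in all 5.

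By complex, the core of complex I had the lowest ratios to healthy blood, at 0.339 in the lung (0.273 to 0.419) and 0.378 in the peritoneum (0.298 to 0.476). In the peritoneum its interval overlapped those of complex II (0.398, 0.312 to 0.503), complex III (0.439, 0.390 to 0.493) and the accessory symbols of complex I (0.443, 0.415 to 0.472), and the accessory symbols were at 0.473 in the lung (0.448 to 0.5003). Complex IV had ratios of 0.686 in the lung (0.655 to 0.719) and 0.570 in the peritoneum (0.539 to 0.602). Complex III was at 0.553 in the lung, and the ATP synthase at 0.505 in the lung and 0.548 in the peritoneum. The 6 assembly factors, which rest on 72 UMIs in healthy blood, were at 0.888 in arthritic blood (0.666 to 1.19), 1.26 in the joint (0.992 to 1.63), 1.44 in the lung (1.07 to 1.96) and 1.16 in the peritoneum (0.823 to 1.63), and only the lung's interval leaves out 1. Among them Ndufaf7, a methyltransferase that acts in complex I assembly, was at 8.89 CPM in healthy blood, 11.5 in arthritic blood, 29.5 in the joint, 25.7 in the lung and 20.2 in the peritoneum. Sdhaf2, which attaches the flavin of complex II, was at 28.4, 20.8, 32.6, 55.3 and 44.6 CPM in the same order. Both lay under the 50 CPM limit and were picked after their values were seen.

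The 3 called members with the lowest fold changes between healthy blood and bone marrow had few UMIs here. Ndufa11 was at 7.11 CPM in healthy blood and at 1.06 to 5.57 CPM in the other conditions. Ndufa5 was at 1.78 CPM in healthy blood and at 0 to 2.27 CPM in the others, from 2 UMIs in healthy blood and 17 in the joint, so no ratio is given. Ndufc2 was at 7.11 CPM in healthy blood and at 2.12 to 5.57 CPM in the others.

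The mt- genes, the mitochondrial genome's part of the same complexes, differed from the members in the inflammation library and could not be compared across the healthy runs. The 9 mt- genes with a row in all tables made up 0.402% of UMIs in healthy blood, 0.378% in arthritic blood, 0.348% in the joint, 0.414% in the lung and 0.334% in the peritoneum. Their ratio to healthy blood was 0.866 in the joint (0.840 to 0.893), 1.03 in the lung (0.989 to 1.07) and 0.830 in the peritoneum (0.793 to 0.869), and these intervals lie above those of the members in the same condition. Among them are the 4 genes described below, whose sequence recurs in pseudogenes. The other 5 were at 0.661 of healthy blood in arthritic blood (0.606 to 0.721), below the members there, and at 0.705 in the joint (0.655 to 0.758), 1.01 in the lung (0.925 to 1.11) and 0.879 in the peritoneum (0.791 to 0.976). As a mean over cells, the share of the 9 was 0.717% in healthy blood, 0.659% in arthritic blood, 0.400% in the joint, 0.845% in the lung and 0.583% in the peritoneum. This mean moved with the cells kept: among cells with at least 5% of UMIs from S100a8 and S100a9 it was 0.394%, 0.399%, 0.345%, 0.416% and 0.328% in the same order. In the healthy libraries their share was 0.151% and 0.434% in bone marrow, 0.164% and 0.281% in blood and 0.129% and 0.623% in spleen. The 9 genes had no call between tissues, with adjusted p of 0.130 to 0.734 in edgeR between blood and bone marrow.

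In all 3 tissues, 4 of the 9 mt- genes were over 2-fold higher in run 2. mt-Co1, mt-Co2, mt-Co3 and mt-Atp6, which encode subunits of complex IV and the ATP synthase, together took 0.0551% of bone marrow UMIs in run 1 and 0.364% in run 2. The other 5, mt-Nd1, mt-Nd2, mt-Nd4, mt-Nd5 and mt-Cytb, took 0.0963% and 0.0702% in bone marrow. They were lower in run 2 in blood too (0.0823% and 0.0433%), but higher in run 2 in spleen (0.0633% and 0.134%). Of 58 members with a mean of at least 50 CPM, 2 showed such a gap, being over 2-fold higher in run 2 in all 3 tissues, against 5.77% of 1732 genes of that level. Atp5l was at 20.5 and 716 CPM in bone marrow, 58.1 and 1259 CPM in blood and 35.4 and 1092 CPM in spleen. Cox7c, a small subunit of complex IV, was at 15.5 and 365 CPM, 19.1 and 290.4 CPM, and 23.4 and 309.8 CPM. In the inflammation library they were at 456 to 728 CPM and 134 to 220.5 CPM. Without both, the module's share was 1.42% and 1.24% in bone marrow, 1.43% and 1.34% in blood and 1.31% and 1.40% in spleen.

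The sequence of these genes recurs in pseudogenes. In GENCODE vM21, the last 400 bases of each member's coding transcripts were split into overlapping windows of 96 bases, the length of the read that carries the transcript, and each window was looked up in the transcripts of all other genes. For mt-Co1, mt-Co2, mt-Co3 and mt-Atp6, 100%, 99.02%, 99.7% and 99.02% of windows occurred in annotated pseudogenes, against 0% to 11.1% for the other 5 mt- genes. Among the members, 64 of 81 had no shared window. Atp5l had the highest share, 70.2%, with 5 pseudogenes, while Cox7c had 32.1%. Atp5h, with 41.5%, and Ndufs3, with 44.3%, were within 2-fold between the runs in each tissue. How far shared sequence accounts for the gap between runs was not tested.

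**Figure D5:**
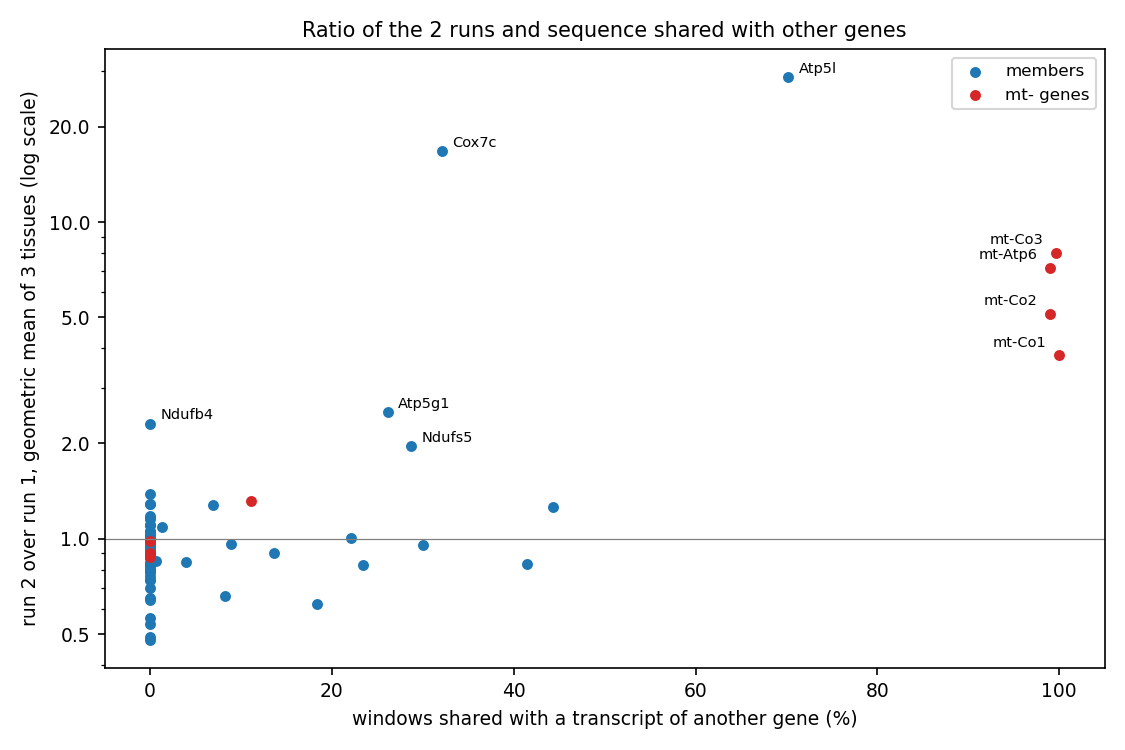
Ratio of CPM in run 2 over run 1 (geometric mean over 3 tissues, log scale) against the share of 96-base windows near the 3′ end that also occur in a transcript of another gene, for the 77 members with a mean of at least 10 CPM (blue) and the 9 mt- genes (red). Atp5l at 70.2% and the 4 mt- genes at 99.02% to 100% lie highest, with Cox7c at 32.1%.

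Tissue-restricted forms were at or near 0 in these cells. Cox6b2, the testis form beside Cox6b1, was at 8.01 and 5.71 CPM in bone marrow and 5.15 and 1.44 CPM in blood. Cox4i2, Cox6a2 and Cox7a1, forms of lung or muscle beside Cox4i1, Cox6a1 and Cox7a2, have no row in all 7 tables and had 9, 6 and 9 UMIs in the kept cells of run 2 and the inflammation library together. Cox8b, the heart and muscle form beside Cox8a, had 0. Among the genes of the c-ring of the ATP synthase, Atp5g3 was lower in blood (79.6 and 49.0 CPM in bone marrow, 47.1 and 33.3 CPM in blood, adjusted p = 0.0387), while Atp5g1 (18.6 and 47.5, 18.4 and 27.6 CPM) was not called and overlapped. Cox6a1 and Cox7a2, both of complex IV, had log2 fold changes of -0.10 ± 0.22 and -0.28 ± 0.22 and overlapped between blood and bone marrow.

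Other genes of oxidative metabolism were read from a list of 61. Of 48 that passed the filter, 9 were lower in blood than in bone marrow and none higher, where 9.94% and 11.7% of all genes tested were called. Their median log2 fold change was -0.45, against -0.02 over all genes tested. Cycs, cytochrome c itself, was at 8.01 and 84.6 CPM in bone marrow and at 5.88 and 31.9 CPM in blood (-1.42, adjusted p = 0.0268), higher in run 2 than in run 1 in both tissues. Cyc1, the cytochrome of complex III, was at 49.7 and 39.4 CPM and at 30.1 and 19.0 CPM (-1.19, adjusted p = 0.0241). Besides Cycs and Cyc1, the called genes with the lowest fold changes were Etfa, a subunit of the flavoprotein that brings electrons from fatty acid oxidation (-1.97, adjusted p = 0.0092), Sucla2 of the tricarboxylic acid cycle (-1.35, adjusted p = 0.0152), Cox20, a complex IV assembly factor (-1.30, adjusted p = 0.0167), and Vdac1, a channel of the outer membrane (-1.26, adjusted p = 0.0238). Slc25a5, the ADP and ATP carrier, and Ucp2, a carrier of the inner membrane, were not called (0.34 and 0.44). No gene of this list was called between spleen and either tissue.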

How the data were processed

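The deposited files hold counts: the authors counted UMIs per gene and cell on mm10 with Cell Ranger, using version 1.2.0 in run 1, version 2.1.0 in run 2 and version 3.0.2 for inflammation. Run 1 tables list only genes with at least 11 UMIs, and a missing gene was set to 0. The annotation deposited with the inflammation library gave condition and cell type. Members and gene lists were chosen with earlier results of these data known.

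Counts were summed per library over the kept cells and tested with edgeR 4.0.16 (quasi-likelihood, TMM, filter on low counts, run as a block, R 4.3.3) across 7809 genes, and called at an FDR under 0.05. DESeq2 1.42.0 was an alternative. Pairing by run comes from the study's methods, by which the tissues of a run share mice, and same-run libraries deviated together (r = 0.553, 0.513 and 0.626 across genes). Tested on simulated data for blood against bone marrow, edgeR recovered 7 of 49 genes changed 1.5-fold, 26 of 44 changed 2-fold, 42 of 48 changed 4-fold and 47 of 47 changed 8-fold, with 1 false call among 7194. The simulated counts had the same spread for every gene and no difference between runs, which these data do show. The recovery therefore does not give the error rate of the calls above.

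Shares carry exact Poisson and ratios exact conditional 95% intervals (scipy 1.17.1), which cover counting error only. No doublet caller was run. Any 2 libraries shared at most 36 cell barcodes. The genes named were the 5 members with the highest mean CPM, up to 10 called members by fold change, the 4 members furthest from the module's median, the 3 furthest up and down past 1.5-fold in each inflammation comparison, the isoform pairs, the mt- genes and, of other pathway genes, up to 6 called ones with Cycs, Cyc1, Slc25a5 and Ucp2. Alternatives changed the block, test, scaling, filters, S100a8 and S100a9 limit, cell class and libraries.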

Additional observations from a re-analysis of the deposited data

Results flagged for a closer look

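Some symbols with the module's prefixes lack a row in at least 1 table and entered none of the comparisons, but had more than 3 UMIs in the kept cells of run 2 and the inflammation library together. Atp5g2, a gene of the c-ring of the ATP synthase, had 1178 UMIs, Atp5sl 81 and Atp5s 30. The assembly factors Ndufaf1, Ndufaf2, Sdhaf3, Ndufaf6 and Ndufaf5 had 74, 29, 15, 14 and 10. The tissue forms Cox4i2, Cox7a1 and Cox6a2 had 9, 9 and 6. Atp5g2 was at 62.3 CPM in bone marrow, 35.0 CPM in blood and 55.2 CPM in spleen of run 2, and at 45.3 CPM in healthy blood and 18.03 to 30.4 CPM in the other conditions of the inflammation library, but had 7 UMIs in the kept cells of the 1 library of run 1 that lists it.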

How the results depend on the processing

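For members called between blood and bone marrow (16), the count was 0 with no replicate block, 28 among genes with a row in all 7 tables (27 lower, where 15.3% of all genes were called lower), 0 with no gate, 10 with cells bearing markers of other lineages left out (7.5% of all genes lower), 7 in granule-low cells and 1 in granule-high cells, and 0 to 35 when a library was left out. The other-lineage filter kept 49 of 4653 blood cells of run 2, and 278 of 1271 and 1273 of 3823 cells of bone marrow. Without its erythroid limit, an alternative chosen after seeing the data, it kept 3183 of these blood cells. The count was then 17, 16 lower and 1 higher, where 10% of 5556 genes were called lower and 11.5% higher. In granule-high cells, Ndufa5 (0.41), Uqcrb (0.16), Ndufv3 (0.025), Ndufc1 (0.37) and Ndufa9 (0.21) changed direction. Between spleen and bone marrow (0), the other-lineage filter gave 7 of 76 (8.04% of all genes lower) and, without its erythroid limit, 8 of 77 (6.68%), granule-low cells 6, and leaving out a library 0 to 11; between spleen and blood (0), granule-high cells gave 1 and leaving out a library 0 to 2. Without the replicate block the members called in the spleen comparisons stayed at 0, and 0% of all genes were called there. The module's log2 ratio of blood over bone marrow (0.08) was -0.18 without S100a8, S100a9 and haemoglobin, -0.21 with no gate, 0.30 and 0.28 with both lineage filters, 0.37 in granule-low and -0.026 in granule-high cells and 0.25 as a mean over cells. Spleen over bone marrow (0.04) was 0.26 with either lineage filter and 0.36 in granule-low cells, and spleen over blood (-0.04) was 0.31 with no gate. With 1 run alone these ratios were 0.02 to 0.15, -0.11 to 0.19 and -0.13 to 0.04. In the inflammation library no ratio crossed 1. Without S100a8, S100a9 and haemoglobin the ratios to healthy blood were 0.912 (arthritic blood), 0.658 (joint), 0.581 (lung) and 0.531 (peritoneum), and joint over arthritic blood 0.721. As means over cells these were 0.875, 0.778, 0.583, 0.560 and 0.889, and lung over peritoneum 1.04. Without mt- and ribosomal genes the joint was at 0.626. The 3% gate gave 0.613 for the joint, 0.489 for the peritoneum and 0.783 for joint over arthritic blood, and the lineage filter 0.655 (joint) and 0.578 (lung). Without the top member the joint, lung, peritoneum and joint over arthritic blood were at 0.627, 0.523, 0.489 and 0.792. Past 2-fold, the members counted were 0 in arthritic blood, 11 in the joint, 21 in the lung, 24 in the peritoneum, 2 for joint over arthritic blood and 0 for lung over peritoneum, where 2.30%, 15.8%, 38.1%, 38.4% and 7.42% of all genes were lower in the first 5 comparisons and 5.66% higher in the last. At 100 CPM they were 1, 15, 22, 23 and 5 of 27 lower and 1 higher, against 12.6%, 32.1%, 46.7%, 44.4%, 18.4% and 12.96% of all genes. At 20 CPM, 11 of 59 were lower in arthritic blood, against 24.4% of all genes. For lung over peritoneum 10 passed at 20 CPM, 8 higher and 2 lower, against 17.7% and 18.3%. At 20 CPM 2 of 59 members were also higher in the lung and 1 in the peritoneum than in healthy blood. Against arthritic blood, 1 was higher in the joint. Among all 3889 genes of that level, 17.0%, 16.6% and 23.1% were higher in these comparisons. Unless the alternative itself removes cells, genes or libraries, the cause was not tested.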

Other observations

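Cox17, a copper chaperone for complex IV that the module's prefixes leave out, was higher in the joint, lung and peritoneum, where most members were lower. In arthritic blood it lay near healthy blood. Its levels were 323 CPM in healthy blood, 328 in arthritic blood, 685 in the joint, 1485 in the lung and 1266 in the peritoneum. Cox17 had a ratio to healthy blood of 4.60 in the lung (exact 95% interval 4.11 to 5.16, counting error only). It was picked after its values were seen, and there is 1 pool per condition.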
